A study of Mus musculus with 24 samples.

Results

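The 10 genes described here belong to the glutamatergic neurons of the mouse cerebellum and were followed through 4 genotype groups: Gabra6, Cbln1, Cbln3, Neurod1, Etv1, Zic1, Zic2, Pax6, Slc17a7 and Calb2. They were taken as a list of known genes of granule neurons and unipolar brush cells, by their symbols, with earlier results of these data known. The list holds 10 of the 43430 genes in the count table, and all 10 were among the 15300 genes with enough reads to be tested. The data are RNA sequencing libraries of whole cerebellum from 24 mice aged about 7 weeks, with 1 library for each mouse, and 3 males and 3 females in each group of 6. The Cre control carries Cre, and the NDI1 control expresses NDI1, a yeast NADH dehydrogenase that regenerates NAD+ without pumping protons. The cKO group carries a conditional knockout used as a model of brain mitochondrial complex I dysfunction, and the cKO+NDI1 group carries this knockout and expresses NDI1. The labels name neither the gene deleted nor the promoter that drives Cre, and no check of the deletion is given here. They also do not say whether the NDI1 control or the 2 knockout groups carry further alleles.

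Granule neurons are the most numerous neurons of the cerebellum. They receive mossy fibre input, send parallel fibres to Purkinje cells and release glutamate, while unipolar brush cells are a smaller class of excitatory interneurons in the granular layer that amplify mossy fibre input. Both arise from the rhombic lip, where Pax6, the Zic factors and Neurod1 act in sequence with other factors as precursors leave division and mature. In the mature granule neuron Gabra6 is a marker that few other brain cells share, and the cerebellins are secreted proteins that granule neurons use to hold parallel fibre synapses together.

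All 10 genes are protein-coding, and the positions here are those of the deposited table on mouse build mm10. Gabra6 lies at chr11:42306437-42321072, Slc17a7 at chr7:45163921-45176138, Cbln1 at chr8:87468854-87472592 and Cbln3 at chr14:55878920-55884256. Neurod1 lies at chr2:79452521-79456751, Etv1 at chr12:38779380-38868215, Zic1 at chr9:91358058-91365810, Zic2 at chr14:122475435-122479852, Pax6 at chr2:105668900-105697364 and Calb2 at chr8:110142539-110168206. Reads were counted over exons. In GENCODE M21, Zic1 shares 60 exon bases with Zic4 on the other strand, and Neurod1 shares 201 with Cerkl on its own strand and 154 with the noncoding Gm26755, so a small part of their counts may belong to these neighbours. The other 8 genes share 0 exon bases with a neighbour. Raw counts per library ran from 860 for Pax6 in its lowest library to 27750 for Cbln3 in its highest.

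The 250 bases before the RefSeq start site (build GRCm38.p6) are shown for Zic1, Etv1, Cbln3 and Gabra6. The first 3 moved together from mouse to mouse, and Gabra6 moved against Zic1. These relations did not pass once a difference between libraries by gene length, described below, was removed. Pearson r then went from 0.85 to 0.18 for Etv1 with Zic1 and from 0.83 to 0.35 for Cbln3 with Zic1. It went from 0.80 to 0.26 for Cbln3 with Etv1 and from -0.49 to 0.12 for Gabra6 with Zic1. A link between these windows and the levels was not tested. Capitals mark the letters CATCTG, the reverse complement of the E-box CAGATG bound by proneural factors such as NEUROD1, and TTTATA, the reverse complement of the TATA box TATAAA. The Zic1 window (chr9:91365769-91366018, minus strand) held neither, and its GC content was 66.0%. The Etv1 window (chr12:38783461-38783710, plus strand) belongs to the second of its start sites in the RefSeq table and had 44.4% GC. The Cbln3 window (chr14:55884257-55884506, minus strand) had 57.6% GC, and the Gabra6 window (chr11:42321073-42321322, minus strand) 40.8%.
Zic1: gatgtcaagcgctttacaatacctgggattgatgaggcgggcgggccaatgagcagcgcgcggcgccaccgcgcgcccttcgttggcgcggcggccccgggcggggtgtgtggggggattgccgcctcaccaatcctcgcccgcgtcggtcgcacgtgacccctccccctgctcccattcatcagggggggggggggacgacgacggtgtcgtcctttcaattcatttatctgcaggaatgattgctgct
Etv1: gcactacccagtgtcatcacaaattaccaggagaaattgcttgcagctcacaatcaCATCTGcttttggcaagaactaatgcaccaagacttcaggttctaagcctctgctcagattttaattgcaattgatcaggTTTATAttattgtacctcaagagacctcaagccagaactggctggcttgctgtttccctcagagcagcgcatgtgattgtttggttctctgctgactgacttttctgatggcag
Cbln3: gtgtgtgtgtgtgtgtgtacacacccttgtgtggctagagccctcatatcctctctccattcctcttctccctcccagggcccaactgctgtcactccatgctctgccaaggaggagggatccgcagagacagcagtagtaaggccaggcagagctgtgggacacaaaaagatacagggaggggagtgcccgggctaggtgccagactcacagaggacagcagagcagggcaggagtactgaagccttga
Gabra6: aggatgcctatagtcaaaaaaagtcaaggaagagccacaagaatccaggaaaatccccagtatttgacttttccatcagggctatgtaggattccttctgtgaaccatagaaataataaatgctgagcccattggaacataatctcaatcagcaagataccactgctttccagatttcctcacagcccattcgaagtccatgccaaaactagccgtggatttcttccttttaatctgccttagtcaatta
The table held windows for 7 of the 10 genes, 9 windows in all, and none was matched for Cbln1, Zic2 and Calb2. On both strands, the E-box letters CAGATG or CATCTG stood in 1 of the 9 windows (Etv1) and in 14.4% of all 32536 promoter windows of this length. The TATA letters stood in the same Etv1 window and in 12.3% of all windows. The full cyclic AMP response site TGACGTCA stood in 1 window of Pax6 and in 1.56% of all, and the core of ETS factors such as ETV1, CCGGAA or TTCCGG, stood in 0 of the 9 and in 12.1% of all. Matches of different motifs did not overlap in these windows.

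Levels are CPM, the counts of a gene relative to the whole library after TMM scaling, and each group value is mean ± SD of 6 mice. Read per kilobase of merged exon in GENCODE M21, the mean over all 24 libraries was 431 CPM per kb for Cbln1, 407 for Gabra6, 373 for Calb2 and 290 for Cbln3. Then came Zic1 (145), Slc17a7 (144), Neurod1 (139), Zic2 (101), Etv1 (10.8) and Pax6 (9.38). Of the 9 pairs of neighbours in this order, 2 did not overlap over the 24 libraries, Cbln3 above Zic1 and Zic2 above Etv1. The other neighbours overlapped, and Zic1 was above Slc17a7 in 12 of 24 libraries. With the length column of the deposited table the order became Calb2 (455 CPM per kb), Cbln1 (324), Slc17a7 (264), Cbln3 (229), Gabra6 (157), Neurod1 (139), Zic1 (93.5), Zic2 (90.4), Etv1 (5.97) and Pax6 (2.40). That column exceeds the gene's own span on the chromosome for 1982 genes, Pax6, Cbln1, Cbln3 and Zic1 among them. Etv1 and Pax6 were the lowest with either length, and Cbln1 and Calb2 were among the highest 3.

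Library totals ran from 7584374 to 19785264 counts, with medians of 15874079 in the Cre control, 15254778 in the NDI1 control, 11547903 in cKO and 15281035 in cKO+NDI1. No pair of libraries within a group agreed within sampling noise. The dissection was checked on further markers. Of 6 forebrain neuron markers, 4 had means under 1 CPM in every group, and the sum of the 6 was 7.63 to 12.3 CPM. Markers of cerebellar nuclei and brainstem summed to 16.2 to 59.1 CPM. The noncoding RNA Gt(ROSA)26Sor, from the locus into which the NDI1 transgene was placed, ran from 5.66 to 9.50 CPM in the mice with NDI1 and from 23.8 to 47.7 CPM in the mice without it. Because the tissue is bulk, fewer cells of a type and less RNA per cell cannot be told apart in any result below.

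**Figure D1:**
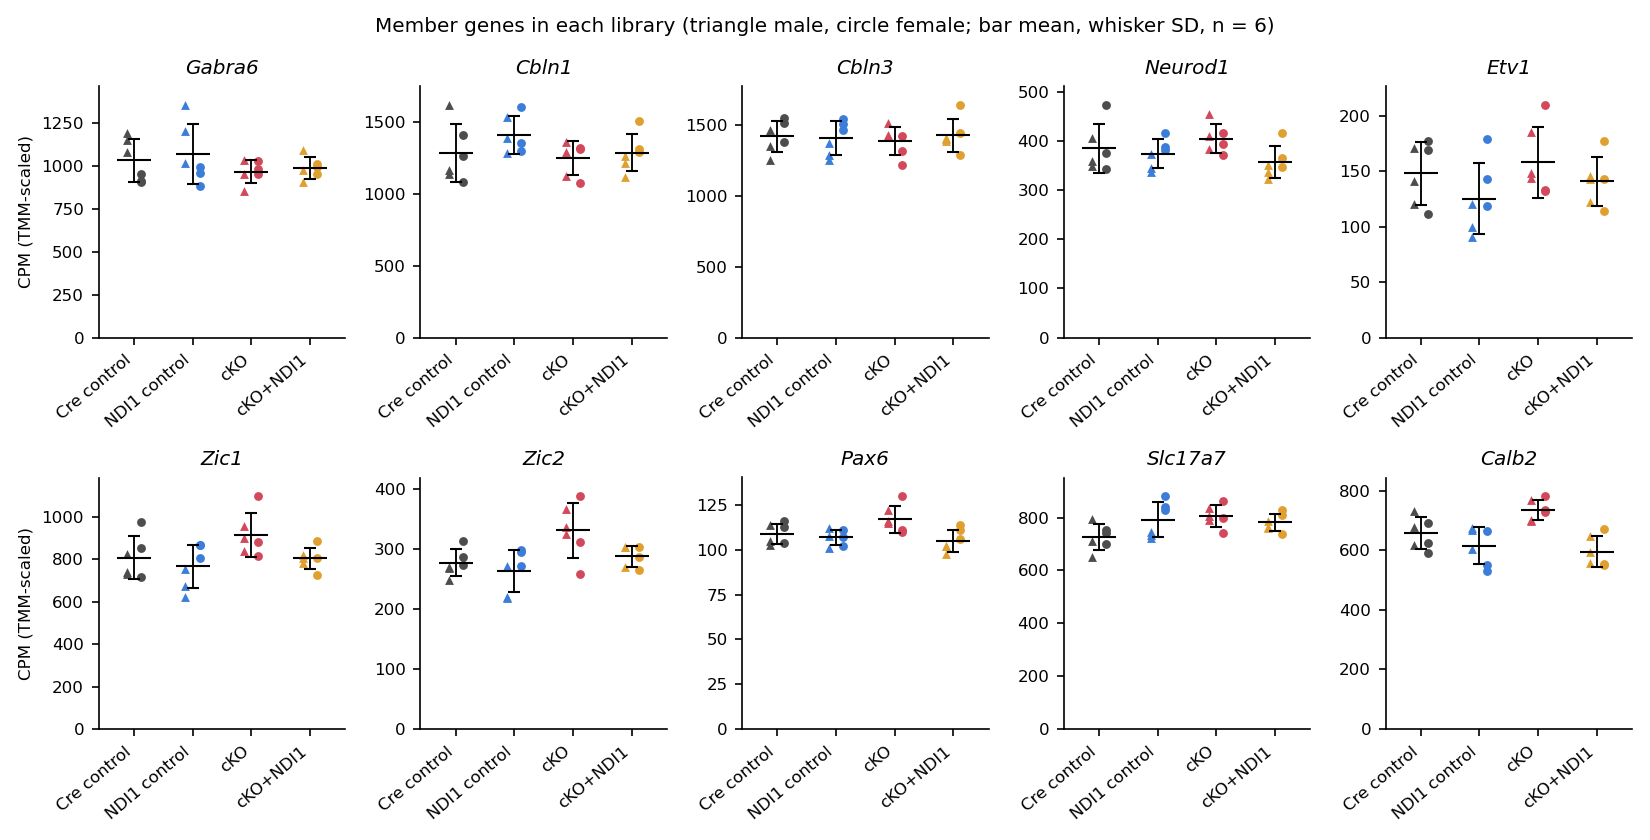
Level of each of the 10 genes in CPM (y axis, from 0) in every library of the 4 groups (x axis), with males as triangles and females as circles. The bar and whisker are the mean and SD of 6 mice. Calb2 is the one gene where groups stand apart, with cKO at 700 to 782 CPM above both groups with NDI1, at 550 to 670 CPM (cKO+NDI1) and 532 to 674 CPM (NDI1 control). Of all tested genes 0.954% did not overlap between cKO and cKO+NDI1, and the share for cKO and the NDI1 control was not counted.

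The effect of the knockout itself was read from cKO and the Cre control. None of the 10 genes passed the test (edgeR quasi-likelihood F test, Benjamini-Hochberg adjusted p under 0.05), where 4.87% of all tested genes were called. At an unadjusted p under 0.05 there were 4 of the 10, Zic2, Slc17a7, Calb2 and Zic1, beside 18.5% of all genes, and DESeq2 and limma-voom each called 0 of the 10. Positive log2 fold changes were seen for 7 of the 10, with a median of 0.10 against -0.01 over all genes. In no gene did the 6 cKO libraries stand clear of the 6 Cre control libraries, beside 2.69% of all genes. The 5 transcription factors, the glutamate transporter Slc17a7 and Calb2 had log2 fold changes of 0.08 to 0.26, and Gabra6 and both cerebellins had values from -0.09 to -0.03.

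Adding NDI1 to the knockout, cKO+NDI1 against cKO, asks which of these levels moved when NDI1 was present. None of the 10 passed, where 0.209% of all genes were called. At an unadjusted p under 0.05 there were 5, Calb2, Pax6, Neurod1, Zic2 and Zic1, all with lower levels in cKO+NDI1, beside 8.56% of all genes. DESeq2 called 1 of the 10, Calb2, and limma-voom 0. Negative log2 fold changes were seen for 7 of 10, with a median of -0.17 against -0.01 over all genes. Between these groups 1 of the 10 genes did not overlap, Calb2, beside 0.954% of all genes. This comparison shares the cKO libraries with the first.

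In the other comparisons none of the 10 genes passed either. Between cKO+NDI1 and the NDI1 control 0% of all genes were called (4.48% at an unadjusted p under 0.05, 23 genes by DESeq2 and 0 by limma-voom), and the 10 log2 fold changes had a median of -0.02, with 0 of the 10 at an unadjusted p under 0.05. Against the Cre control, cKO+NDI1 differed in 1.25% of all genes, the median was -0.03, and again 0 of the 10 reached an unadjusted p under 0.05, beside 13.5% of all genes. In NDI1 control against Cre control 0.00654% of all genes were called, which is 1 gene, and Slc17a7 was the 1 member at an unadjusted p under 0.05, beside 9.20% of all genes. For the interaction of knockout and NDI1, a test of unequal knockout effects with and without NDI1, 0% of genes were called (5.18% at an unadjusted p under 0.05, 7 genes by DESeq2 and 0 by limma-voom), and Calb2 and Slc17a7 were at an unadjusted p under 0.05. DESeq2 and limma-voom called 0 of the 10 in each of these 4. The groups overlapped for all 10 genes in the 3 comparisons of groups, where the share of all genes that did not overlap was 0.314%, 1.58% and 0.386% in the order given.

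**Figure D2:**
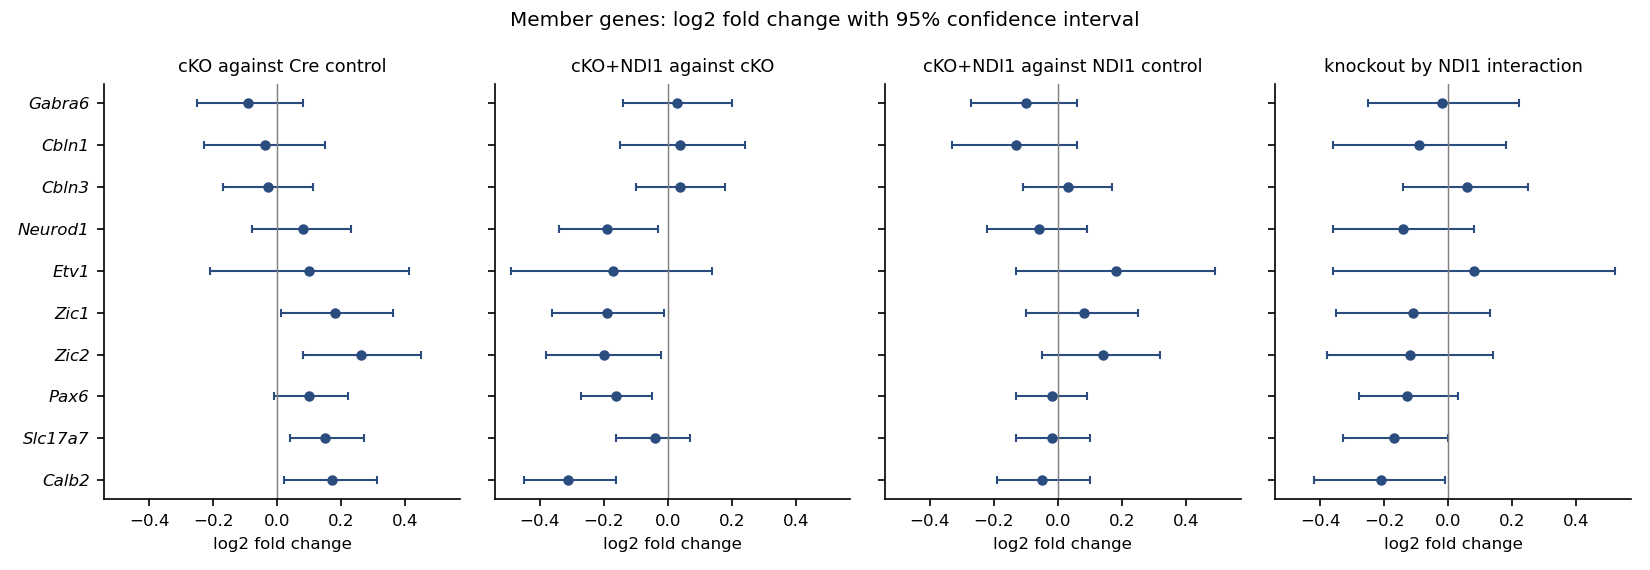
Log2 fold change (x axis) of the 10 genes (y axis) with its 95% confidence interval in 4 comparisons, from the fit of all 24 libraries. In cKO+NDI1 against cKO the interval of Calb2 runs from -0.45 to -0.16, and the intervals of Etv1 are the widest in each panel.

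Among the receptor and transporter genes, Gabra6 encodes the alpha 6 subunit of GABA-A receptors, which carries tonic inhibition of granule neurons. It ran from 905 through a median of 1017 to 1191 CPM in the Cre control, from 879 through 1004 to 1354 in the NDI1 control, from 853 through 965 to 1030 in cKO and from 903 through 982 to 1091 in cKO+NDI1. All 4 groups overlapped, and the control groups spread more widely (SD of 125 and 176 CPM) than the knockout groups (65.1 and 62.9 CPM). The log2 fold change of cKO against Cre control was -0.09 ± 0.08 (SE here and below, adjusted p = 0.641), with a 95% interval from -0.25 to 0.08. Slc17a7 encodes VGLUT1, which loads glutamate into the vesicles of parallel fibres. In the Cre control it ran from 652 through 726 to 796 CPM, and in cKO from 743 through 801 to 863. In the NDI1 control it ran from 722 through 788 to 881 CPM, and in cKO+NDI1 from 739 through 776 to 828. The Cre control was thus the lowest group on average, and each of the others overlapped it. The log2 fold change against the Cre control was 0.15 ± 0.06 in cKO (adjusted p = 0.126), 0.12 ± 0.06 in the NDI1 control (adjusted p = 0.517) and 0.11 ± 0.06 in cKO+NDI1 (adjusted p = 0.422).

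The cerebellins showed no difference that passed. Cbln1, secreted by granule neurons, acts in the cleft of parallel fibre synapses on Purkinje cells, and Cbln3 is a family member that is secreted together with it. Mean levels of Cbln1 were 1284 ± 202 and 1413 ± 131 CPM in the Cre and NDI1 controls, 1249 ± 118 CPM in cKO and 1289 ± 130 CPM in cKO+NDI1. Its 4 ranges, from 1077 to 1624 CPM in all, overlapped. The log2 fold change of cKO against Cre control was -0.04 ± 0.09, with an interval from -0.23 to 0.15, and that of cKO+NDI1 against cKO was 0.04 ± 0.09. Cbln3 stood at 1420 ± 110, 1405 ± 120, 1387 ± 102 and 1428 ± 118 CPM in the same order of groups. Its change with the knockout was -0.03 ± 0.07 (interval -0.17 to 0.11) and its change with NDI1 in the knockout 0.04 ± 0.07 (interval -0.10 to 0.18).

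Of the transcription factors, Zic2, a zinc finger factor of granule precursors and neurons, had the highest log2 fold change of the 10 in cKO against Cre control. Its lowest, median and highest levels were 248, 272 and 314 CPM in the Cre control and 258, 330 and 388 CPM in cKO. In 4 of the 6 cKO libraries it lay above the highest Cre control library, while cKO F2 at 312 CPM and cKO F3 at 258 CPM lay inside the control range. The log2 fold change was 0.26 ± 0.09 (adjusted p = 0.0934). Of the 24 fits with 1 library left out, the one without cKO F3 called it. In cKO+NDI1 it stood at 288 ± 17.5 CPM (265 to 304), a log2 difference from cKO of -0.20 ± 0.09 (adjusted p = 0.522). Zic1, its relative, ran from 716 through 783 to 978 CPM in the Cre control, from 624 through 781 to 870 in the NDI1 control, from 817 through 891 to 1099 in cKO and from 727 through 806 to 886 in cKO+NDI1. Its log2 fold change was 0.18 ± 0.08 in cKO against Cre control (adjusted p = 0.228) and -0.19 ± 0.08 in cKO+NDI1 against cKO (adjusted p = 0.527).

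Pax6, the paired-box factor of rhombic lip precursors that stays on in granule neurons, varied little within groups. Its coefficient of variation was 3.90% to 6.51%, and its means were 109 ± 5.62, 107 ± 4.16, 117 ± 7.64 and 105 ± 6.13 CPM in the 2 controls (Cre, then NDI1) and in cKO and cKO+NDI1. The log2 difference of cKO+NDI1 from cKO was -0.16 ± 0.05 (adjusted p = 0.317), with cKO at 110 to 130 CPM and cKO+NDI1 at 97.5 to 114. Neurod1, a basic helix-loop-helix factor of neuronal differentiation, stood at 385 ± 49.3, 374 ± 29.1, 405 ± 29.2 and 357 ± 32.0 CPM. Its log2 difference of cKO+NDI1 from cKO was -0.19 ± 0.08 (adjusted p = 0.452). Etv1, an ETS factor whose targets in granule neurons belong to the mature, activity-dependent programme, varied most, with a coefficient of variation of 15.6% to 25.6%. It ran from 90.7 to 210 CPM over all libraries, and its group means of 148 ± 28.5, 125 ± 32.0, 158 ± 32.0 and 141 ± 22 CPM gave a log2 fold change of 0.10 ± 0.15 for cKO against Cre control, with an interval from -0.21 to 0.41.

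Calb2 encodes calretinin, a calcium buffer of granule neurons and of a class of unipolar brush cells. It ran from 591 through 653 to 733 CPM in the Cre control, from 532 through 635 to 674 in the NDI1 control, from 700 through 732 to 782 in cKO and from 550 through 576 to 670 in cKO+NDI1. Every library of cKO+NDI1 and of the NDI1 control lay below every cKO library. The share of all genes without overlap was 0.954% for the first of these separations. For cKO against the NDI1 control, which differ in both knockout and NDI1, this share was not counted and no test was run. The 2 groups with NDI1 overlapped each other almost wholly, and the mean of the Cre control lay between those of cKO and the groups with NDI1. The log2 difference of cKO+NDI1 from cKO was -0.31 ± 0.07, a ratio of 0.809, with an interval from -0.45 to -0.16 and an adjusted p of 0.0766. It passed with DESeq2 and without cKO+NDI1 F1. With the knockout alone its log2 fold change was 0.17 ± 0.07 (adjusted p = 0.187), and the interaction was -0.21 ± 0.10 (adjusted p = 0.960). Summed oligodendrocyte markers moved in the same direction, at 11763 to 18474 CPM in cKO and 9341 to 11309 in cKO+NDI1. They were also lower in the NDI1 control (9903 to 12379 CPM) than in the Cre control (12394 to 14441). All 8 of these genes had negative log2 fold changes between the 2 controls, and 0 were called. In that list 4 of 8 genes fell in cKO+NDI1 against cKO (Mbp, Mobp, Mal and Cldn11), and the part of that shift in the level of Calb2 was not tested.

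The libraries also differed among mice of the same group and sex, and 8 of the 10 genes followed this difference. For each library the mean log2 CPM of the longest 10th of genes (1522 genes with at least 9791 exon bases) minus that of the shortest 10th (1521 genes with at most 1597 bases) was taken, with the 10 genes left out. This length difference spanned -0.78 to 0.66 around its mean over the 24 libraries, and was not tested against genotype or sex. Within groups and sexes it correlated with Zic1 (Pearson r = 0.91, Spearman rho = 0.94), Etv1 (0.89 and 0.89), Cbln3 (0.82 and 0.82), Neurod1 (0.78 and 0.81) and Zic2 (0.57 and 0.56). It correlated negatively with Calb2 (r = -0.71, rho = -0.72), Cbln1 (-0.68 and -0.73) and Gabra6 (-0.58 and -0.65). These 8 had adjusted p-values from 2.5e-05 to 0.00361 for r over the 10 relations (permutation test, two-sided, 24 libraries), and without the 2 libraries farthest out r kept its sign at 0.48 or more in size. The permutations treated the 24 deviations as independent, though group and sex means had been removed, so these p-values are too low. The share of all tested genes that followed the length difference by this test was not counted. With Zic1 in its place, 27.2% of all genes had an r of at least 0.5 and 27.7% one of -0.5 or lower. Pax6 (r = 0.24, rho = 0.20) and Slc17a7 (r = 0.12, rho = 0.10) did not pass (adjusted p = 0.279 and 0.588, permutation test). The exon lengths of the 10 genes themselves did not give the order of these values. Calb2 (1743 bases) and Gabra6 (2489) were the shortest and Etv1 (13296) the longest, but Neurod1 (2729) and Zic2 (2880) were shorter than Cbln1 (3037), and Pax6 had 11694 bases.

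When this length difference was added to the model as a term, 4 of the 10 genes passed in cKO against Cre control, all higher in cKO, where 20.4% of all genes were called. They were Zic1 (log2 0.17 ± 0.04, adjusted p = 0.00305), Calb2 (0.18 ± 0.04, adjusted p = 0.00450), Zic2 (0.24 ± 0.06, adjusted p = 0.00597) and Slc17a7 (0.15 ± 0.05, adjusted p = 0.0207). The estimates moved by at most 0.02 from those without the term, and the standard errors were smaller. Gabra6 (-0.08 ± 0.05), Cbln1 (-0.02 ± 0.08) and Cbln3 (-0.04 ± 0.04) again had negative values that did not pass. With NDI1 added to the knockout, Calb2 fell by 0.34 on the log2 scale (SE 0.04, adjusted p = 4.2e-05), the 1 member called where 2.54% of all genes were. Against the Cre control, Calb2 in cKO+NDI1 was also the 1 member called (log2 -0.16 ± 0.04, adjusted p = 0.0165), where 10.2% of all genes were. The interaction of Calb2 did not pass (-0.20 ± 0.06, adjusted p = 0.132). The term is computed from the same libraries and was chosen after the data were seen, so these calls stand beside the fit without it and do not replace it.

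Pairs of the 10 genes rose and fell together from mouse to mouse. Deviations of log2 CPM from the mean of each group and sex were compared over 24 libraries in all 45 pairs, and 19 pairs passed (Benjamini-Hochberg adjusted permutation p under 0.05), 10 positive and 9 negative. The permutations treated the 24 deviations as independent, though the mean of each group and sex had been removed. The permutation p-values here and below are therefore too low, and the counts of pairs that passed may be too high. The share that would pass among pairs of all tested genes was not counted. Etv1 and Zic1 had r = 0.85 and rho = 0.84, Cbln3 and Zic1 had r = 0.83, and Cbln3 and Etv1 had r = 0.80. Etv1 and Cbln1 had r = -0.81 and rho = -0.85, which stayed at -0.81 without the 2 farthest libraries, and Etv1 and Calb2 had r = -0.79 and rho = -0.80. Their adjusted p-values were 9.0e-05 for Cbln1 with Etv1 and 0.000150 for Etv1 with Calb2 (permutation test, whose smallest raw p is 1e-05). The 2 cerebellins, whose proteins are secreted together, moved in opposite directions between mice, with r = -0.50, rho = -0.59 and an adjusted permutation p of 0.0322, but r was 0.14 (adjusted permutation p = 0.679) once the length difference was removed.

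**Figure D3:**
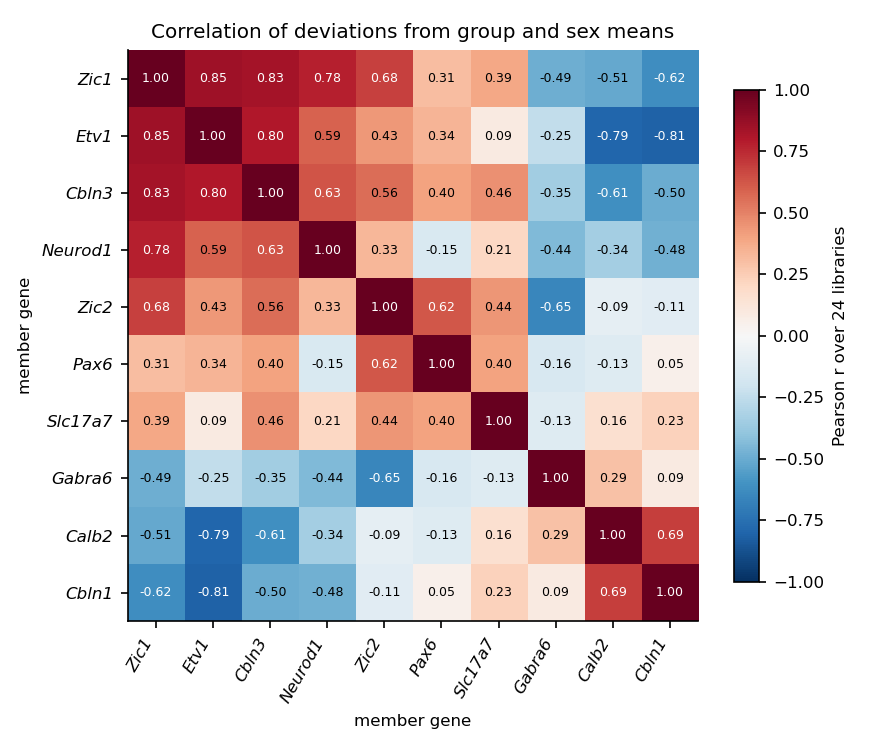
Pearson r of every pair of the 10 genes, over deviations from the mean of each group and sex in 24 libraries. Red cells mark pairs that rise together, such as Etv1 and Zic1 at 0.85, and blue cells pairs that move apart, such as Etv1 and Cbln1 at -0.81.

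Most of these relations did not hold once the length difference was removed by regression. The number of pairs that passed went from 19 to 8, of which 2 were among the 19 with the same sign, Cbln1 with Etv1 (r = -0.60, adjusted permutation p = 0.0157) and Zic2 with Pax6 (r = 0.60, adjusted permutation p = 0.0157). Etv1 with Zic1 went from 0.85 to 0.18, Cbln3 with Zic1 from 0.83 to 0.35 and Neurod1 with Zic1 from 0.78 to 0.26, and none of the 3 passed (adjusted permutation p = 0.519, 0.191 and 0.386). Other pairs appeared. Gabra6 with Etv1 turned from -0.25 to 0.73 (adjusted permutation p = 0.00225), Zic1 with Slc17a7 went from 0.39 to 0.70 (0.00405) and Cbln3 with Slc17a7 from 0.46 to 0.64 (0.0108).

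**Figure D4:**
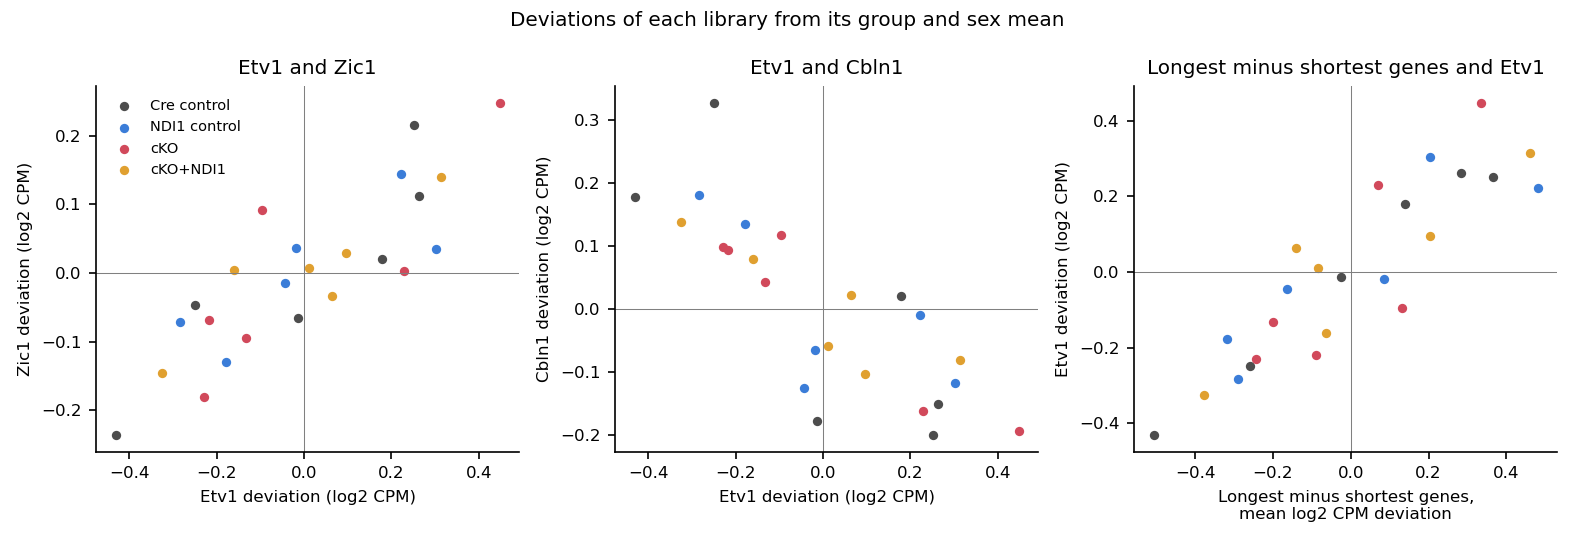
Each point is 1 of 24 libraries, coloured by group, placed by its deviation in log2 CPM from the mean of its group and sex. Zic1 rises with Etv1 (r = 0.85), Cbln1 falls with Etv1 (r = -0.81), and Etv1 rises with the level of the longest minus the shortest genes (r = 0.89).

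The same axis ran through much of the transcriptome. Across the 15213 tested genes with an exon length, 27.2% had an r of at least 0.5 with Zic1 within groups and sexes, and 27.7% had one of -0.5 or lower. The median r with Zic1 was 0.78 in the longest 10th of genes and -0.55 in the shortest. Across genes, which are not independent replicates, r with Zic1 correlated with log2 length at 0.55. Of 19 library measures set beside Zic1, 8 had an adjusted permutation p under 0.05. The summed levels of further granule neuron genes (r = 0.88), unipolar brush cell genes (0.88), inhibitory interneuron genes (0.88) and synaptic partners (0.93) rose with it, and that of microglia fell (-0.66). Library total (r = -0.10), the mitochondrial share of reads (0.28), Purkinje cell genes (-0.07) and oligodendrocyte genes (-0.05) did not pass (adjusted permutation p = 0.851, 0.315, 0.851 and 0.870). The part of each of these measures in the levels of the 10 genes was not tested.

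Single libraries stood at the ends for several genes at once. In cKO, library F1 was the highest for Etv1 (210 CPM), Zic1 (1099), Zic2 (388), Pax6 (130) and Slc17a7 (863), and F3 was the lowest for 7 of the 10. In cKO+NDI1, F3 was the highest for 6 of the 10. The length difference deviated from its group and sex mean by 0.334 in cKO F1 and by -0.244 in cKO F3. These were the highest and lowest deviations in cKO, and 0.46 in cKO+NDI1 F3 was the highest in that group. Library cKO+NDI1 F3 also had the lowest total, 7584374 counts. In no gene and group was the end library separated from the rest beyond Dixon's limit.

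Sex was tested over all 4 groups. None of the 10 genes passed in male against female, where 0.0850% of all genes were called, and DESeq2 and limma-voom called 0 of the 10. Gabra6 and Zic1 reached an unadjusted p under 0.05, beside 16.9% of all genes. Gabra6 was higher in males by a log2 of 0.15 ± 0.06 (adjusted p = 0.291), and in the controls the sexes stood apart: the 6 males ran from 1017 to 1354 CPM and the 6 females from 879 to 990. In cKO the males ran from 853 to 1030 CPM and the females from 953 to 1027, and in cKO+NDI1 from 903 to 1091 and from 952 to 1008. The share of all genes with the sexes apart in the controls was not counted. Zic2 came close to it in the other direction, with control males at 219 to 272 CPM and control females at 272 to 314. A contrast of the sexes took the change with the knockout in males and subtracted that in females, over all 4 groups. It was -0.35 ± 0.09 for Gabra6 (adjusted p = 0.0766), 0.29 ± 0.11 for Zic2 (adjusted p = 0.108) and 0.21 ± 0.08 for Cbln3 (adjusted p = 0.112). This test, added after the values were seen, called 0% of all genes, though 31.7% had an unadjusted p under 0.05. The length difference was arranged in the same way: males and females of the Cre control had means of -0.17 and 0.29, those of the NDI1 control -0.46 and 0.22, those of cKO 0.22 and -0.03, and those of cKO+NDI1 -0.12 and 0.05. With the length difference as a term, male against female gave a log2 of 0.07 ± 0.04 for Gabra6 (adjusted p = 0.845) and -0.03 ± 0.03 for Zic1 (adjusted p = 0.932), where the fit without it gave 0.15 and -0.13. The contrast of the knockout effect between the sexes was not fitted with this term.

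Further genes of the same cells were counted from lists, beside 4.87% of all genes called in cKO against Cre control. Of 17 further granule neuron genes, 1 rose and 1 fell in cKO against Cre control, with a median log2 fold change of -0.01 (all genes -0.01). Grin2c, the NMDA receptor subunit that mature granule neurons take up, rose from 228 ± 17 to 276 ± 18.5 CPM (log2 0.28 ± 0.06, adjusted p = 0.0106), and all 6 cKO libraries (258 to 308) lay above the Cre control (204 to 250). Fstl5, a secreted protein of the follistatin family, fell in all cKO mice, to 29.0 ± 2.43 CPM from 41.7 ± 2.60 (log2 -0.52 ± 0.08, adjusted p = 0.000597), again without overlap. Of all tested genes, 2.69% did not overlap between these groups. Fstl5 stayed low in cKO+NDI1 at 31.4 ± 2.60 CPM, a log2 difference from the Cre control of -0.41 ± 0.08 (adjusted p = 0.0148). Its difference from the NDI1 control was -0.34 ± 0.08 (adjusted p = 0.271).

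Of 7 further genes of unipolar brush cells, 1 fell in cKO against Cre control. Eomes, the defining factor of these cells, averaged 22.6 ± 10.1 CPM without and 34.5 ± 13.8 CPM with the knockout, a log2 difference of 0.63 ± 0.32 that did not pass (adjusted p = 0.303). Of 9 genes of dividing granule precursors, 7 could be tested, and Atoh1 and Nhlh1 could not. Mki67, a marker of dividing cells of any type, fell in cKO from 0.677 ± 0.145 to 0.215 ± 0.131 CPM (log2 -1.51 ± 0.43, adjusted p = 0.0408), and this call was lost in 12 of 24 fits with 1 library left out.

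The 14 synaptic and receptor partners all had negative log2 fold changes in cKO against Cre control, with a median of -0.15 beside -0.01 over all genes, of which 48.1% were positive. In NDI1 control against Cre control, which shares the Cre control libraries, 12 of the 14 were negative too, with a median of -0.17, and 0 were called (3 at an unadjusted p under 0.05). Of these, 2 fell. One was Gria4, an AMPA receptor subunit, which went from 661 ± 19.6 to 565 ± 46.3 CPM (log2 -0.23 ± 0.05, adjusted p = 0.0144). Of 7 relatives of the transcription factors 6 were tested, 0 were called and 1 had an unadjusted p under 0.05, Zic5 with a log2 of 0.18 ± 0.06 (adjusted p = 0.0723). Between cKO+NDI1 and cKO, 0 genes of these 5 lists were called, with 8 at an unadjusted p under 0.05. Purkinje cell markers summed to 9842 to 10558 CPM in cKO and 10997 to 11508 in the Cre control. Of these markers, 1 of 8 fell, the glutamate transporter Slc1a6 (log2 -0.34, adjusted p = 0.00267). Positive log2 fold changes were seen for 3 of the 8, and the median was -0.05 beside -0.01 over all genes. Markers of astrocytes and Bergmann glia summed to 4097 to 4633 and 4754 to 4945 CPM in these groups. Of these 8 genes, 2 fell and 1 had a positive log2 fold change, with a median of -0.10. The sums themselves were not tested. The part of these shifts in the levels of the 10 genes was not tested.

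The genes whose pattern over the 24 libraries was most like the mean standardised profile of the 10 were Ednra (Pearson r = 0.87), Egln1 (0.86), Furin (0.85), Sec14l1 (0.84) and Brpf1 (0.84). The 10 genes themselves had r from -0.50 for Gabra6 and -0.13 for Cbln1 to 0.81 for Zic2 and 0.83 for Zic1 with the profile that they form.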

How the data were processed

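Messenger RNA of whole cerebellum was sequenced from 24 mice after polyA selection, per the labels' protocols. The submitters' processing notes name bcl2fastq, Trimmomatic, STAR, HTSeq and build mm10; versions and counting settings are not given in the sources used here. The authors deposited whole-number read counts per gene, with no normalization. The table has 43430 genes, 42462 of them matched to a symbol, and 0 per-library columns and 0 rows without a gene identifier were set aside. The kit is not named as one that marks strand.

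Counts were scaled by TMM, filtered with filterByExpr by group, and tested with edgeR's quasi-likelihood F test in a single fit of 24 libraries with terms for group and sex (R 4.3.3 with edgeR 4.0.16 and limma 3.58.1). Benjamini-Hochberg adjustment ran over 15300 genes, with a threshold of 0.05. A prior count of 2 entered log CPM, and intervals are 95%. Correlations used deviations from the mean of each group and sex and 100000 permutations. These permuted all 24 libraries freely and made no allowance for the means removed, so their p-values are too low. Alternatives were RLE factors, library size alone, no filter, DESeq2 1.42.0, limma-voom, a replicate block, no sex term, groups alone, each sex alone, thinned counts and each library left out. The length difference, the test of sexes, merged exon lengths and the 19 measures beside Zic1 were added after the data were seen. The scripts were tested on simulated data.

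The 10 genes and the 16 lists were chosen with earlier results of these data known. The text gives each of the 10 genes, up to 3 called genes from each list (otherwise its first 2), and the 5 genes most like the mean profile. Eomes and Zic5 outside that rule were named after their values were seen, and some genes of the lists are not reported here by name. Sequences are from RefSeq.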

Additional observations from a re-analysis of the deposited data

How the results depend on the processing

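The count of 0 of the 10 genes called held in every alternative run for 4 of the 7 comparisons. In cKO against Cre control it was 0 to 1 with each library left out (1, Zic2, without cKO F3) and 4 with the length difference as a term. For cKO+NDI1 against cKO it was 0 to 1 with each library left out (1, Calb2, without cKO+NDI1 F1), 1 with DESeq2 and 1 with the length term. In cKO+NDI1 against Cre control it was 1 with the length term. The median log2 fold change of the 10 genes in cKO+NDI1 against cKO was -0.17, and -0.07 in females alone. The count of correlated pairs, 19, was 15 to 25 with each library left out, 28 without sex and 8 with the length difference removed.

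Over alternatives, the adjusted p of Zic2 in cKO against Cre control ran from 0.00597 to 0.625, and that of Calb2 in cKO+NDI1 against cKO from 4.2e-05 to 0.506, with the same sign in 36 of 36 each. The call of Gria4 was lost in 4 of 36 alternatives, that of Grin2c in 3 and of Fstl5 in 1.

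Counts of all genes called moved more. In cKO against Cre control, 745 became 425 without the filter, 1159 with DESeq2, 263 from the 2 groups alone, 38 in males, 364 in females, 370 with thinned counts and 3125 with the length term. With library size alone 543 were higher and 221 lower, in place of 468 and 277. For cKO+NDI1 against cKO, 32 became 21, 110, 13, 2, 2, 18 and 389 in the same order, and 10 to 42 with each library left out. For cKO+NDI1 against Cre control, 191 became 87 without the filter, 491 with DESeq2, 14 in males, 2 in females, 66 with thinned counts, 1555 with the length term and 26 to 279 with each library left out. The cause was not tested.

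With the replicate number as a block, 0 of the 10 genes were called in each comparison, and 754, 20, 0, 200, 2 and 0 genes were called over all in the order of the report. The labels give these numbers no meaning. The 36 same-numbered pairs had correlations of deviations from -0.40 to 0.51, with a median of 0.11 and 19 pairs over 0.1. Among libraries of other groups, 8 of 24 libraries correlated best with one of their own number. The count to be had without pairing was not computed, so whether same-numbered libraries share a source of deviation was not tested. Mki67 was measured at under 1 CPM, where counts are few.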
